A study of Mus musculus with 19 samples.

Results

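Serine and one-carbon synthesis in muscle was followed through 6 genes, Phgdh, Psat1, Psph, Shmt1, Shmt2 and Mthfd2. On the array, 17 probe sets of 45101 were annotated to only one gene with one of these symbols (6 of 18193 genes measured in this way): 4 for Phgdh, 2 for Psat1, 1 for Psph, 4 for Shmt1, 4 for Shmt2 and 2 for Mthfd2. A further 2 probe sets are annotated to Phgdh and to a second gene and were left out. The genes were chosen by pathway with the HSALR against wild-type differences of the whole series already known, so those differences are given here as a description. Whether a member is past the threshold of the fit over the whole array is stated for completeness, and nothing is supported with it.

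RNA came from EDL muscle (extensor digitorum longus, made mostly of fast fibres) of FVB mice that were 19 weeks old. There were 9 wild-type arrays, and 10 arrays of HSALR mice of line 20 b, a mouse model of myotonic dystrophy in which a transgene of human skeletal actin (HSA) holds an expanded CTG repeat. It is driven by the actin gene's own promoter, which is active in muscle fibres, and these samples come from a single transgenic line. Whether each sample was a separate animal is not stated, so errors and p-values cover the spread between arrays, part of which may be technical. All 12 muscle fibre markers examined were detected. In limma 0 of them passed as deposited, and 2, Actn3 and Cacna1s, were lower after quantile normalization.

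Serine is made from 3-phosphoglycerate, an intermediate of glycolysis, in a short chain of reactions: Phgdh oxidises it, Psat1 adds the amino group and Psph removes the phosphate. Serine hydroxymethyltransferase, Shmt1 in the cytosol and Shmt2 in mitochondria, then turns serine into glycine and hands a carbon unit to tetrahydrofolate. Mthfd2 oxidises that folate-bound unit in mitochondria, where it goes on to formate for purine and thymidylate synthesis. The pathway is known to be high in dividing cells and to be induced through the transcription factor ATF4 when mitochondrial function fails, in muscle among other tissues.

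The 120 bases before the RefSeq start of each gene are shown because the 6 genes are treated as 1 pathway and because a short motif recurs in 5 of them. The table is of build GRCm38.p6, all 6 genes lie on the minus strand, and the sequences run 5′ to 3′ towards the start, with capitals marking CCAAT or its reverse complement ATTGG. For Psph and Mthfd2 the annotated gene reaches further upstream than the start used.
Psph, chr5:129787254-129787373: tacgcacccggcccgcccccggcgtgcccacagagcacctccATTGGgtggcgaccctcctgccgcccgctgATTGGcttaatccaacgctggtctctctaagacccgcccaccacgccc
Phgdh, chr3:98339970-98340089: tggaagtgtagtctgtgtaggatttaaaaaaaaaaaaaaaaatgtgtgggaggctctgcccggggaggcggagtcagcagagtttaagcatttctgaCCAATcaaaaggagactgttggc
Psat1, chr19:15925060-15925179: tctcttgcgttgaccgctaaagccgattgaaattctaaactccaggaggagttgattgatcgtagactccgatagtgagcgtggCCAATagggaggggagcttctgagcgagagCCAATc
Shmt1, chr11:60811266-60811385: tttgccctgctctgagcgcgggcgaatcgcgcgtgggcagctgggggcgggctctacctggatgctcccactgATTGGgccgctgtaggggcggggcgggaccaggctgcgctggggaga
Shmt2, chr10:127522445-127522564: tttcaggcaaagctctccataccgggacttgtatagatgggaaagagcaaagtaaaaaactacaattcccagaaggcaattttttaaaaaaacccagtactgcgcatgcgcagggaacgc
Mthfd2, chr6:83317605-83317724: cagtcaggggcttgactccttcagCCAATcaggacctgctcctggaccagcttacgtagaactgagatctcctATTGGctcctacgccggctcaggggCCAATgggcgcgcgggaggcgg

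Over the whole window of the table, 250 bases before to 50 after the start, CCAAT on either strand was found in 5 of the 6 genes, all but Shmt2. The 6 genes have 7 windows, and that of the second Psat1 start held 0 as well. CCAAT was also found in 12289 of all 32851 windows, 37.4%, a share per window and not per gene. The CCAAT motif was chosen after the sequences had been seen. TGATGNAA, the core shared by C/EBP-ATF response elements, was searched on both strands and was found in 0 of the 7 windows of the 6 genes and in 1304 of all 32851 windows, 3.97%. Psat1 has a second start with its own window. These are matches of letters and say nothing about binding.

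Of the 17 probe sets, 13 passed the filter on low values (mean log2 signal of at least 6.09, the median over probe sets), and those left out were both of Psat1, 1422198_a_at of Shmt1 and 1434204_x_at of Shmt2. Near background means here that fewer than 0.5 of a group's arrays exceeded their own limit, the 95th percentile of 83 probe sets for olfactory, vomeronasal and taste receptors, which lay between intensities of 63.7 and 118. By that measure 6 probe sets were near background in both groups: both of Psat1, 1437621_x_at of Phgdh, 1422198_a_at of Shmt1, 1434204_x_at of Shmt2 and 1419254_at of Mthfd2. A further probe set, 1425179_at of Shmt1, was near background in wild type only. With the 90th percentile as the limit 4 were near background in both groups, and with the 99th 9 were. Every gene but Psat1 therefore had at least 1 probe set above this level in both groups.

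**Figure D1:**
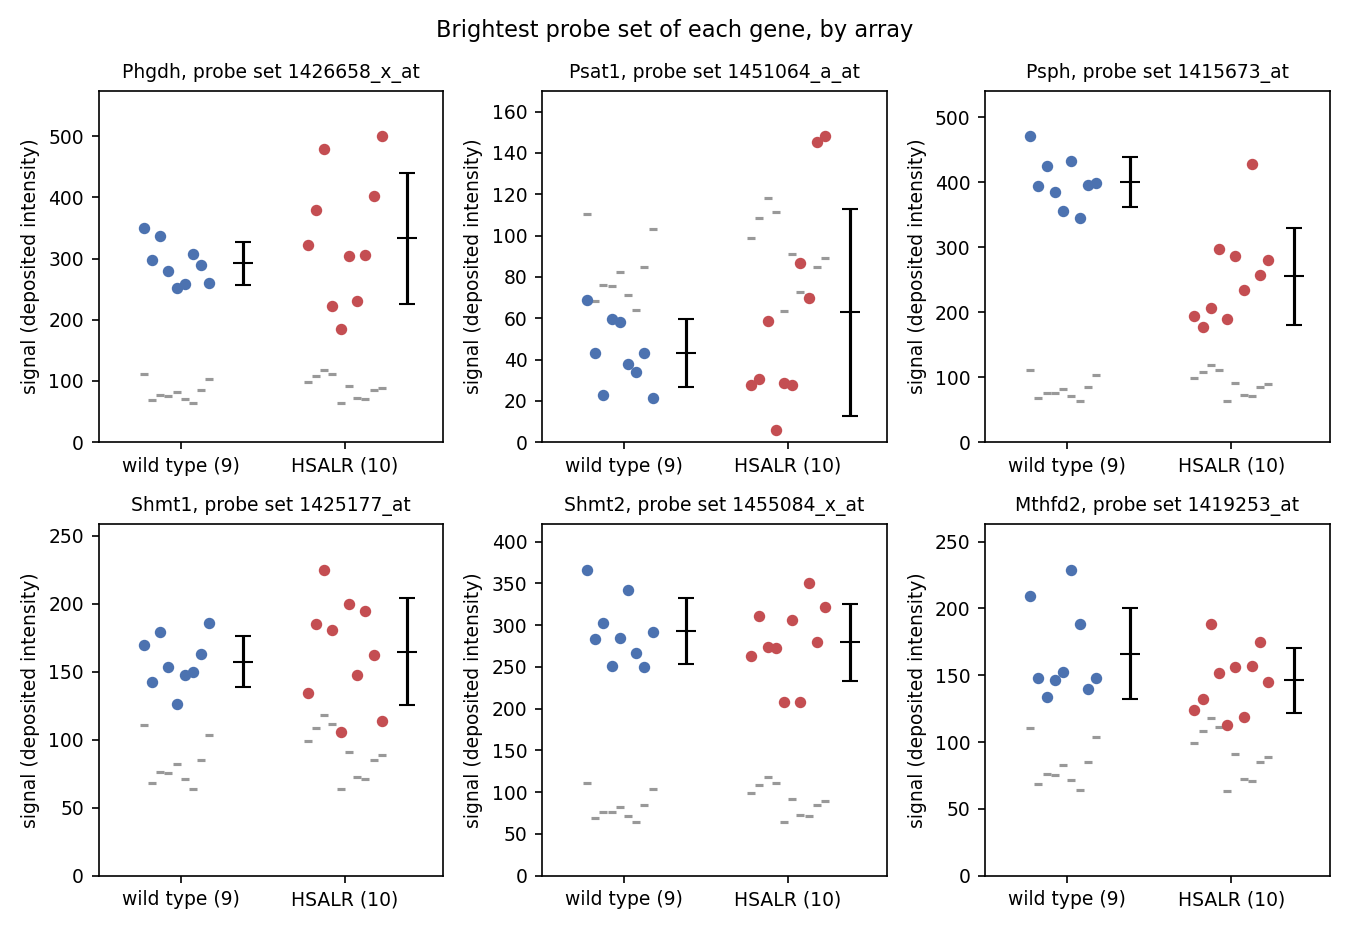
Intensity (vertical axis, linear, starting at 0) of the brightest probe set of each gene in the 9 wild-type and 10 HSALR arrays; points are arrays, black marks the mean ± SD and grey dashes the background limit of each array. Psph is lower in 9 of 10 HSALR arrays than in any wild-type array, the groups overlap for the other genes, and most Psat1 points lie under their limit.

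Median array intensities ranged from 39.7 in HSALR 5 to 71.9 in wild type 1, and how the arrays were scaled before deposit is not stated, so differences are given as deposited, with values after quantile normalization where these change what is said. HSALR 9 and 10 stand apart: they ranked their probe sets more like each other (Spearman 0.978) than any other array resembled its nearest partner (0.953 to 0.969). Of the macrophage and monocyte markers, 3 of 16 (Aif1, Fcgr1 and Itgam) exceeded the limit in under 10 arrays. The summed intensity of all 16 was 25355 in HSALR 9 and 28743 in HSALR 10, against 4427 to 12279 in the other 8 HSALR arrays and 5077 to 8589 in wild type. Among the 11 dividing-cell markers 9 exceeded the limit in under 10 arrays, and their sum was 1315 and 1190 in these 2 arrays, against 455 to 785 and 541 to 868. The fibroblast score, a mean log2 deviation from wild type, was 1.34 and 1.27 in them and reached 0.47 in the other 8. The fat cell markers varied among other arrays: their score was 0.75 to 1.17 in HSALR 1, 2, 3, 7, 8 and 10, -0.03 to 0.29 in HSALR 4, 5, 6 and 9 and at most 0.32 in wild type, with 4 of 7 markers above the limit in under 10 arrays. In limma 2 of 14 macrophage, 1 of 10 fibroblast, 2 of 4 fat cell and 1 of 7 satellite cell markers rose, and 0 of 10 endothelial, 0 of 6 Schwann cell and 0 of 4 dividing-cell markers passed. The part of these cell types in the members' values was not tested. Members are given with and without HSALR 9 and 10. In whole muscle, fewer cells of a type and less RNA per cell cannot be told apart.

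The member with the lowest HSALR level relative to wild type was Psph, the phosphatase of the last step to serine. Its only probe set, 1415673_at, gave intensities of 345, 396 and 471 (lowest, median and highest) in wild type and of 178, 246 and 427 in HSALR. HSALR 8, at 427, was the only HSALR array inside the wild-type range, and the other 9 lay below every wild-type array. Means were 400 ± 38.6 (SD, n = 9) and 255 ± 74.4 (SD, n = 10). The log2 difference, HSALR minus wild type, was -0.66 ± 0.13 (SE), with a 95% interval from -0.92 to -0.39, which makes HSALR 1.58-fold lower on the log2(value + 16) scale. After quantile normalization the difference was -0.72 and all 10 HSALR arrays lay below every wild-type array. Without HSALR 9 and 10 it was -0.69, so it did not rest on those arrays.

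Psph passed a false discovery rate of 0.05 in limma, where 2.2% of the 22519 tested probe sets were called lower and 2.86% higher. Having at least 9 of 10 HSALR arrays below every wild-type array was seen in 0.693% of tested probe sets, and having all 10 below after quantile normalization in 1.03%. Since the gene was proposed with this contrast known, nothing more is read from the call. HSALR 8 was not usually the odd array: among the 495 probe sets called lower it was the highest of the 10 HSALR arrays in 28, where HSALR 4 was in 112.

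Phgdh, the first and committing enzyme, did not follow Psph. Its brightest probe set, 1426658_x_at, gave 252, 289 and 350 in wild type and 184, 314 and 500 in HSALR. The HSALR arrays lay on both sides, with 4 above and 3 below every wild-type array, and their SD was 107 against 34.9 in wild type. At least 6 of 10 HSALR arrays above every wild-type array was already seen in 8.25% of tested probe sets. Shares for smaller counts, above or below, were not taken, so nothing is read from such counts. The log2 difference was 0.13 ± 0.15 (SE; 95% interval -0.19 to 0.44), and 0.01 without HSALR 9 and 10.

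The other Phgdh probe sets all had positive differences. 1456584_x_at, above the limit in 8 of 9 wild-type and all 10 HSALR arrays, gave 97.1, 132 and 175 in wild type and 108, 179 and 249 in HSALR. Of the HSALR arrays 5 exceeded every wild-type array, a count whose share over all probe sets was not taken. The difference at this probe set was 0.34 ± 0.13 (SE, with a 95% interval from 0.07 to 0.61), or 0.23 without HSALR 9 and 10. It did not pass the threshold. 1437621_x_at had 0.40 ± 0.20 and 1454714_x_at 0.24 ± 0.22, with intervals that included 0, and these were 0.15 and 0.07 without the 2 arrays. The suffix _x on all 4 marks probe sets that the array's naming says may also hybridise to other sequences.

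Psat1, the aminotransferase, was at the edge of what the arrays measured. Its brighter probe set, 1451064_a_at, exceeded the background limit in 0 of 9 wild-type and 3 of 10 HSALR arrays, with 21.2, 43.1 and 69.0 in wild type and 6.07, 44.6 and 148 in HSALR. The 3 arrays were HSALR 10 at 148, HSALR 9 at 145 and HSALR 7 at 86.6. The log2 difference of 0.20 ± 0.31 (SE; 95% interval -0.43 to 0.84) turned to -0.12 without HSALR 9 and 10. The other probe set, 1454607_s_at, was at or under the limit in all 19 arrays, and there too HSALR 9 and 10 were highest, at 84.2 and 69.3. Its difference went from 0.27 ± 0.20 to 0.05 without them.

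**Figure D2:**
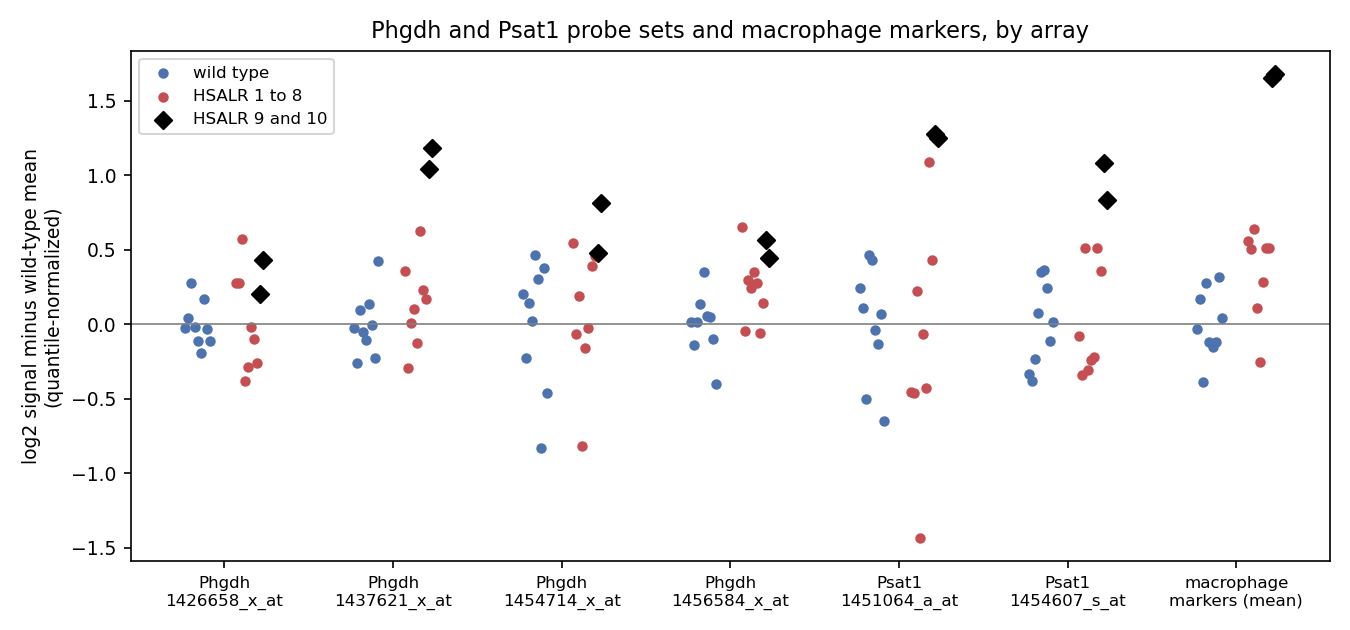
Deviation of each array from the wild-type mean (log2, quantile-normalized) for the Phgdh and Psat1 probe sets and the macrophage marker score, by array. HSALR 9 and 10 are at 1.28 and 1.25 for Psat1 1451064_a_at and at 1.65 and 1.68 for the macrophage score, while Phgdh 1426658_x_at gives 0.20 and 0.43, inside the range of the other 8 HSALR arrays.

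After quantile normalization, as deviations from the wild-type mean, HSALR 9 and 10 stood at 1.04 and 1.19 for Phgdh 1437621_x_at, above the other 8 HSALR arrays at -0.29 to 0.63. For Phgdh 1426658_x_at they stood at 0.20 and 0.43, within the range of -0.38 to 0.57, and for 1456584_x_at at 0.57 and 0.45, within -0.06 to 0.65. For 1454714_x_at they stood at 0.48 and 0.82, against -0.82 to 0.55, so HSALR 10 lay above the other 8. For Psat1 1454607_s_at they stood at 1.08 and 0.84, above -0.34 to 0.51. Psph was not high in them: -0.84 and -0.80, within the range of -1.23 to -0.25. In these 2 arrays the macrophage score was 1.65 and 1.68, against -0.25 to 0.64 in the other 8 and -0.39 to 0.32 in wild type.

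Shmt1, the cytosolic serine hydroxymethyltransferase, gave different readings by probe set. The brightest, 1425177_at, had 126, 153 and 186 in wild type and 106, 171 and 225 in HSALR, a log2 difference of 0.04 ± 0.12 (SE; 95% interval -0.21 to 0.29) that turned to -0.01 after quantile normalization. 1425178_s_at had -0.15 ± 0.14 (95% interval -0.43 to 0.14). Neither passed the threshold.

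Shmt1 1425179_at, in contrast, gave 37.1, 54.5 and 86.4 in wild type and 74.5, 92.9 and 116 in HSALR. It exceeded the background limit in 0 wild-type and 6 HSALR arrays, so the wild-type values are near background. Of the HSALR arrays 6 lay above every wild-type array, and the wild-type array nearest to them was wild type 1, which had the highest median intensity of all arrays. That share of arrays, at least 6 of 10, was reached by 8.25% of tested probe sets. The log2 difference was 0.61 ± 0.12 (SE; 95% interval 0.37 to 0.85), and 0.60 without HSALR 9 and 10. With wild type near background this is not a measured fold, and it moved with the pseudocount, to 0.74 at 1 and 0.39 at 64. It was the only member probe set called higher. Its interval does not overlap that of 1425177_at or 1425178_s_at, though the difference between probe sets of the gene was not itself tested. The fourth Shmt1 probe set, 1422198_a_at, was near background throughout, with means of 13.8 ± 7.08 and 11.4 ± 4.71.

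Shmt2, the mitochondrial hydroxymethyltransferase, had overlapping groups on every probe set. Its brightest probe set, 1455084_x_at, had 250, 285 and 366 in wild type and 208, 277 and 350 in HSALR. After quantile normalization 2 HSALR arrays lay below every wild-type array, a count whose share over all probe sets was not taken. The log2 difference was -0.07 ± 0.10 (SE; 95% interval -0.28 to 0.14), so a change of up to 0.28 downwards lies within the interval. The other probe sets above background gave -0.11 ± 0.13 for 1426423_at and -0.09 ± 0.15 for 1455985_x_at. The near-background 1434204_x_at gave 0.04 ± 0.15.

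Mthfd2, the mitochondrial folate dehydrogenase, had lower means in HSALR on both probe sets, and neither passed the threshold as deposited. 1419253_at had 134, 148 and 229 in wild type and 113, 148 and 189 in HSALR, with medians that round to the same value. It had 4 HSALR arrays below every wild-type array, a count whose share over all probe sets was not taken. Its difference was -0.16 ± 0.11 (SE, with a 95% interval from -0.39 to 0.07). 1419254_at, near background in both groups (above the limit in 4 and 3 arrays), had means of 87.8 ± 18.9 and 68.7 ± 22.6 and a difference of -0.33 ± 0.16. After quantile normalization this probe set had -0.39 and passed the threshold, at which 8.38% of tested probe sets were called lower and 6.47% higher. In total 14 of the 17 intervals included 0.

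**Figure D3:**
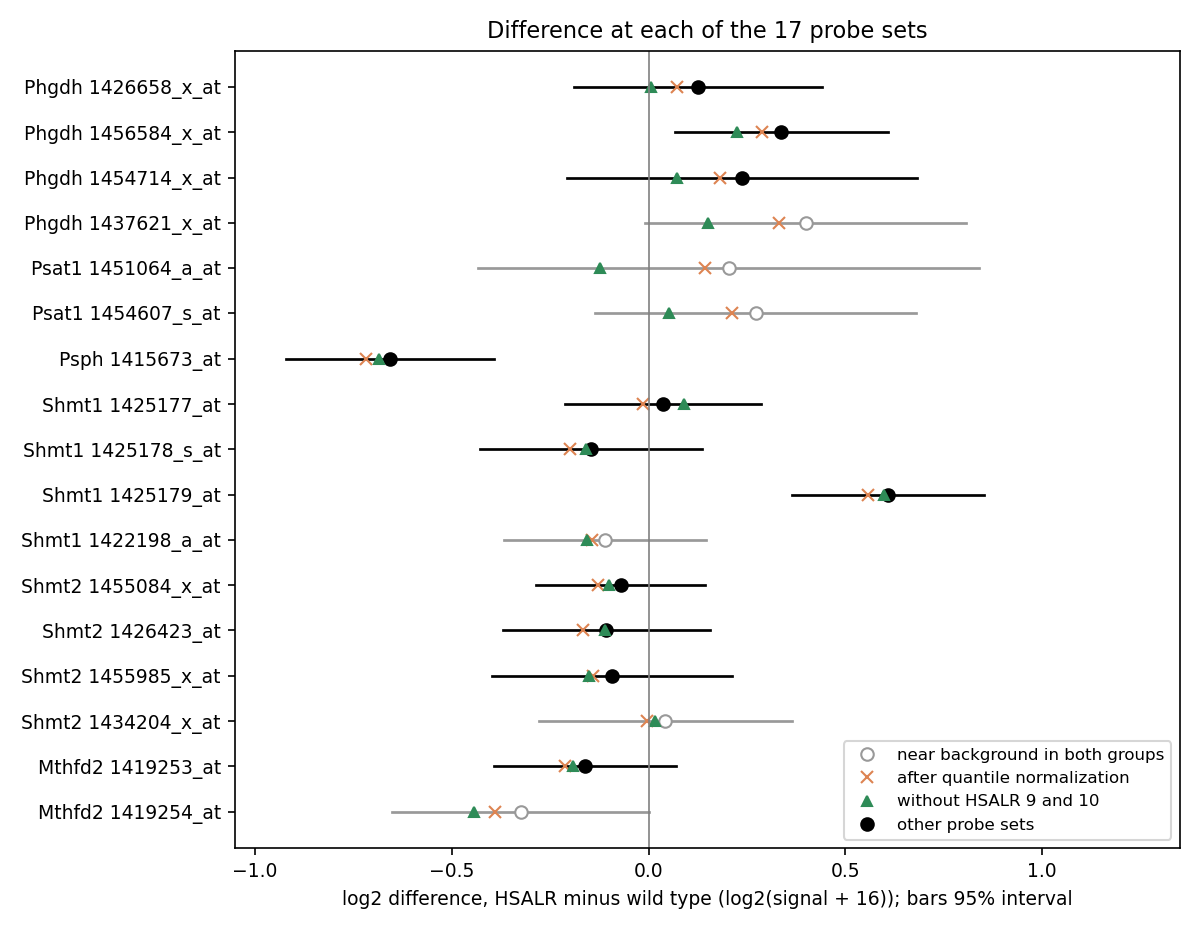
Log2 difference, HSALR minus wild type, of all 17 probe sets as deposited, with its 95% interval, beside the values after quantile normalization and without HSALR 9 and 10. Psph at -0.66 and Shmt1 1425179_at at 0.61 are the values past the threshold, and the Phgdh and Psat1 values lie nearer to 0 without HSALR 9 and 10.

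Probe sets of 1 gene did not track each other closely across arrays. With values centred on their group mean after quantile normalization, Pearson's r over 19 arrays was 0.22 to 0.38 between the Phgdh probe sets, -0.35 to 0.46 between those of Shmt1, -0.19 to 0.11 between those of Shmt2 and 0.04 for the Mthfd2 pair. The Psat1 pair reached 0.76, and 0.60 without HSALR 9 and 10. These are descriptions over arrays of shared processing and have no p.

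Between genes, the brightest probe sets of Psph and Phgdh varied in opposite directions within HSALR, with r = -0.80 and Spearman's rho = -0.78 over 10 arrays, and r = -0.87 over 8 without HSALR 8 and 2, the arrays farthest from the median of Psph. In the 9 wild-type arrays r was 0.19. The pair was picked out of 15 for this value, and over all 15 pairs r ran from -0.80 to 0.63 in HSALR and from -0.83 to 0.56 in wild type, the lowest in wild type being that of Psat1, which is near background, with Shmt1. The other Phgdh probe sets gave weaker values with Psph in HSALR: 0.09 for 1437621_x_at, -0.17 for 1454714_x_at and -0.15 for 1456584_x_at over 10 arrays. Over the 8 arrays without HSALR 8 and 2 they gave -0.18, -0.62 and -0.62, and over the 8 without HSALR 9 and 10 they gave 0.49, -0.09 and -0.06. Leaving out HSALR 9 and 10 gave -0.82 for the brightest probe set.

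**Figure D4:**
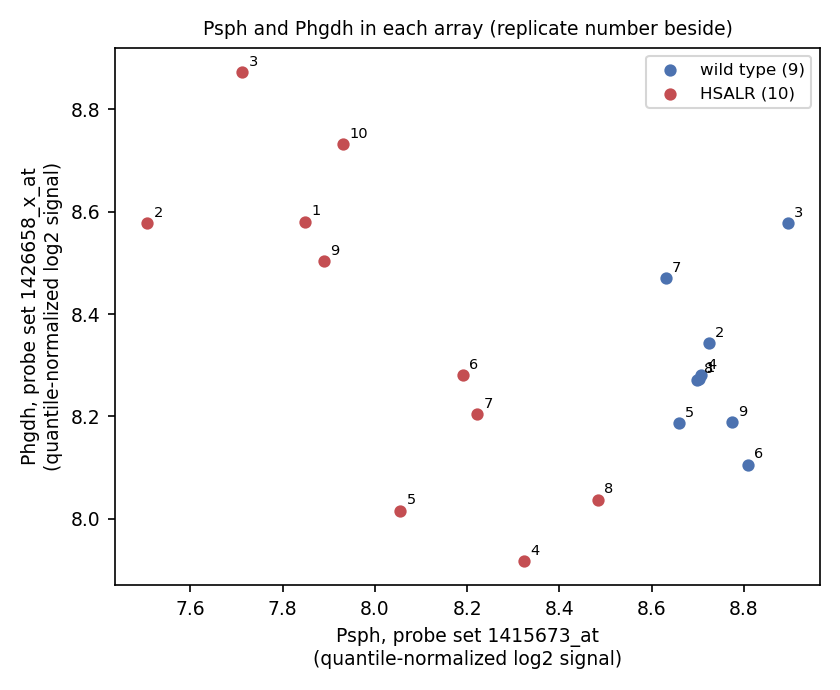
Psph 1415673_at against Phgdh 1426658_x_at (log2, quantile-normalized), each point an array with its replicate number, wild type and HSALR in separate colours. Within HSALR high Phgdh values go with low Psph values (r = -0.80, n = 10), and the wild-type arrays form a compact group (r = 0.19, n = 9).

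Among 11532 other genes, each by its brightest probe set, those most like each member other than Psat1, which was left out as near background, across the 19 group-centred arrays were the following, where the 99th percentile of r over all genes was between 0.56 and 0.68. For Psph they were Arhgap12 (r = 0.89), Nip7 (0.88, with rho only 0.62) and Asb14 (0.87). Asb14, a muscle ankyrin repeat and SOCS box protein, also fell between the groups by 0.57 ± 0.13 (limma adjusted p = 0.0131), while Arhgap12 and Nip7 had differences of 0.08 and -0.01. For Phgdh they were Iah1 (0.79), Slc11a1 (0.78), a metal transporter of macrophages, and Cxcl13 (0.78), a chemokine. Cxcl13 rose by 0.81 ± 0.19 (limma adjusted p = 0.0127), and leaving out HSALR 9 and 10 gave r = 0.75 for it.
For Mthfd2 they were Nck2 (0.82), Wtap (0.76) and Tceanc (0.74), for Shmt1 Nudt19 (0.81), Umad1 (0.80) and Tbc1d1 (0.80), and for Shmt2 1700097N02Rik (0.79), Senp7 (0.78) and Atf7ip (0.76). The Tbc1d1 value dropped to 0.55 without HSALR 9 and 10. Each of these genes was picked as among the highest of 11532, so its r is a description with no p.

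The rest of the pathway was read from 9 lists holding 157 genes, of which 143 were on the array and 120 passed the filter. In limma 1 rose and 6 fell; over all 11533 genes tested, 3.11% rose and 2.31% fell. The median log2 difference was 0.03 in these 120 genes and 0.05 over all genes. After quantile normalization 8 rose and 19 fell, against 6.96% and 8.51% of all genes.

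Upstream of Phgdh, 0 of 5 tested genes of the glycerate phosphate branch point, glycolytic enzymes such as phosphoglycerate kinase and enolase, passed as deposited, with a median difference of 0.003. Pgam1, phosphoglycerate mutase, had 0.46 ± 0.16 (limma adjusted p = 0.087) and passed after quantile normalization (0.41, adjusted p = 0.0244). Without HSALR 9 and 10 it had 0.29 and did not pass, as deposited (adjusted p = 0.256) or after quantile normalization (adjusted p = 0.0687). It had 6 HSALR arrays above every wild-type array, where at least 6 were above in 8.25% of tested probe sets. In the folate cycle 0 of 16 passed as deposited, with a median of 0.005. After quantile normalization 2 were lower: Mtrr, methionine synthase reductase, at -0.41 (limma adjusted p = 0.000939; -0.35 and 0.0526 as deposited), and Aldh1l2, the mitochondrial formyltetrahydrofolate dehydrogenase, at -0.45 (adjusted p = 0.0405). Aldh1l2 had -0.39 ± 0.19 as deposited (adjusted p = 0.245) and -0.63 without HSALR 9 and 10, where it passed (adjusted p = 0.00491). Pgam1, Mtrr and Aldh1l2 are named after their values were seen. Mthfd1, the trifunctional cytosolic enzyme, had -0.08 ± 0.11 (limma adjusted p = 0.733). Mthfd1l, which releases formate in mitochondria, had 0.36 ± 0.17 (adjusted p = 0.251), and Mthfd2l, the isozyme of Mthfd2, had 0.20 ± 0.12 (adjusted p = 0.354). The 3 tested folate transport genes had a median of 0.31, the value of Folr2, and 0 passed. Without HSALR 9 and 10 Folr2 had 0.10, Slc25a32 0.19 and Slc19a1 -0.23. Mat2a was not analysed here.

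In the methionine cycle and transsulfuration, 2 of 13 fell and 0 rose. Both are enzymes of methionine salvage, which recycles methylthioadenosine, while Mri1, another enzyme of that route in the list, had -0.07 ± 0.10 (limma adjusted p = 0.717); this grouping was made after the values were seen. Mtap, which cleaves methylthioadenosine, gave 449 to 643 in wild type and 231 to 427 in HSALR, so all 10 HSALR arrays lay below every wild-type array. Its difference was -0.50 ± 0.12 (limma adjusted p = 0.0106). At least 9 of 10 HSALR arrays below every wild-type array were seen in 0.693% of tested probe sets. Adi1, a dioxygenase of the same route, fell by 0.44 ± 0.11 (limma adjusted p = 0.0143). It had 8 HSALR arrays below every wild-type array, a count whose share over all probe sets was not taken. Both passed without HSALR 9 and 10 as well, at -0.53 and -0.44. Cbs, which condenses serine with homocysteine, had 0.05 ± 0.12 (adjusted p = 0.87), a sign that turned under median centring. After quantile normalization 3 of the 13 fell and 1 rose.

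Of the genes that use serine and glycine, 1 of 16 rose and 0 fell. Serinc5, a membrane protein named as a serine incorporator, was higher by 0.61 ± 0.18 (limma adjusted p = 0.0487). It had 6 HSALR arrays above every wild-type array, where at least 6 were above in 8.25% of tested probe sets. As deposited it lost the threshold without HSALR 9 and 10 (0.40, adjusted p = 0.111). After quantile normalization it passed with all arrays (0.55, adjusted p = 0.02) and without HSALR 9 and 10 (0.38, adjusted p = 0.0462). With that scaling and all arrays, 2 of the 16 genes rose and 1 fell. Of 14 serine and glycine transporters 1 fell: Slc38a4, a neutral amino acid transporter, gave 576 to 1047 in wild type and 183 to 503 in HSALR, a difference of -1.34 ± 0.15 (limma adjusted p = 8.7e-06). Slc38a2, which also carries serine, had 0.31 ± 0.15 (adjusted p = 0.234). After quantile normalization 3 transporters fell and 0 rose, against 8.51% and 6.96% of all genes. Besides Slc38a4 these were Slc25a38 (-0.34, limma adjusted p = 0.00486) and Sfxn2 (-0.42, adjusted p = 0.0113), named after their values were seen.

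Of 25 genes of the ATF4 and amino acid response 0 rose and 2 fell as deposited, though the median difference was 0.22. That median, the value of Eif4ebp1, leaned on HSALR 9 and 10. Without these arrays Eif4ebp1 had 0.07, and the middle value of the list was 0.02, that of Ppp1r15a. After quantile normalization 3 rose and 5 fell, against 6.96% and 8.51% of all genes. Those that rose were Atf3 (0.75, limma adjusted p = 0.0208), Slc7a1 (0.32, adjusted p = 0.0402) and Ppp1r15b (0.21, adjusted p = 0.0357). These genes are named after their values were seen. On that scaling without HSALR 9 and 10, 3 genes of the list rose and 4 fell. Atf3 still passed there (0.79, adjusted p = 0.0363), but Slc7a1 (0.21, adjusted p = 0.107) and Ppp1r15b (0.17, adjusted p = 0.1) did not. As deposited Atf3 had 0.81 ± 0.24 (adjusted p = 0.0514). Chac1, which degrades glutathione, had 998 to 2888 in wild type and 429 to 1892 in HSALR, and fell by 0.97 ± 0.23 (limma adjusted p = 0.0148). Gpt2, the mitochondrial alanine aminotransferase, fell by 0.62 ± 0.16 (limma adjusted p = 0.0216). It had 8 HSALR arrays below every wild-type array, a count whose share over all probe sets was not taken. Atf4 itself had 2163 to 2950 in wild type and 1622 to 2952 in HSALR, a difference of -0.22 ± 0.11 (adjusted p = 0.262) that became -0.28 and passed after quantile normalization (adjusted p = 0.00544). Asns, asparagine synthetase, had 0.03 ± 0.18 (adjusted p = 0.956), a sign that turned after quantile normalization and without HSALR 9 and 10.

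Of 18 cytosolic aminoacyl tRNA synthetases 1 fell as deposited, Mars1, which charges methionine, by 0.41 ± 0.09 (limma adjusted p = 0.00752), and the list's median was -0.06. After quantile normalization 4 of them fell and 1 rose, Hars (0.31, adjusted p = 0.0109), named after its value was seen. Of 11 MYC and MTORC1 factors 0 passed as deposited, and 1 was lower after quantile normalization. At an unadjusted p under 0.05, 16 of the 120 genes were higher (13.3%) and 17 lower (14.2%), against 13.8% and 7.47% of all 11533 genes.

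**Figure D5:**
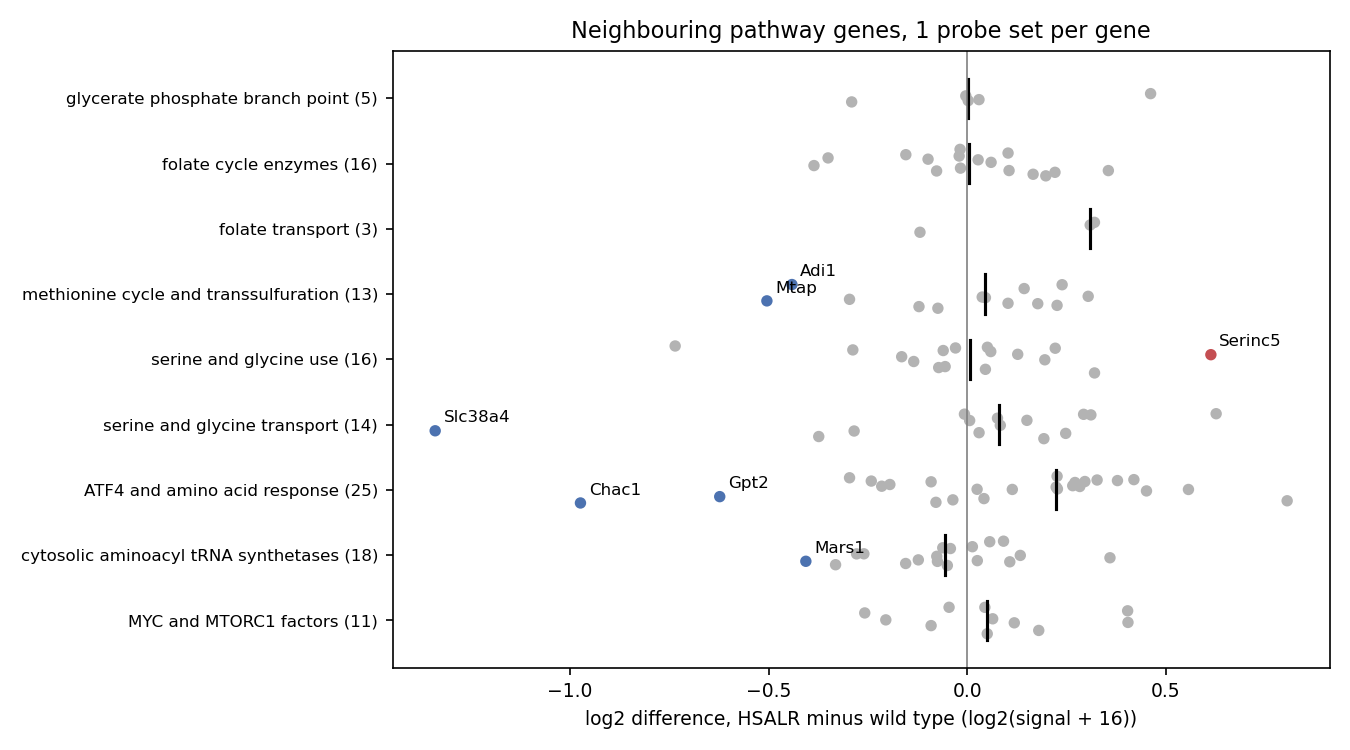
Log2 difference, HSALR minus wild type, of the 120 tested genes of 9 pathway lists, 1 point per gene, with genes past the limma threshold named. Past the threshold 6 genes lie below 0 and 1, Serinc5, above it; Slc38a4 at -1.34 lies farthest from 0 among these 7.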

How the data were processed

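Total RNA of 9 wild-type and 10 HSALR EDL samples was labelled with biotin and hybridised to Affymetrix arrays of 1 colour (labels' protocols). The deposited values are intensities on a linear scale. The submitters' processing notes name GCOS 1.4, without a scaling target or algorithm. No file gives detection calls, and the number of arrays limits the precision.

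Values were used as log2(value + 16), a scale on which dim genes change less. Apart from 64 control probe sets, those with a mean log2 of at least 6.09 were kept (22519). Members below the filter were read from the same model without it. Group differences were fitted with limma 3.58.1 (R 4.3.3), with Benjamini-Hochberg adjustment over all tested probe sets at 0.05. Errors of log2 differences are standard errors. A gene outside the 6 was read from its brightest probe set.

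The members and lists were chosen with earlier results of these data known. Named genes were the 6 members, 9 genes whatever their result, up to 4 genes per list past the threshold and the 3 genes most like each member not near background. Alternatives were pseudocounts of 1 and 64, other filters and scalings, a covariate for the 3'/5' ratio, a replicate block, weights per array, a different variance model and fewer arrays. Same-numbered samples correlated at -0.24 to 0.13 and only 1 of 9 pairs was best with its own number, so numbers were not taken as pairs. Fits were tested on simulated data. Plots used matplotlib 3.10.9 (Python 3.11.15).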

Additional observations from a re-analysis of the deposited data

Results flagged for a closer look

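Of 34 sets of values checked, the 17 probe sets in each group, 3 held an array far from the rest of its group by Dixon's criterion, where chance gives about 1 in 20. All 3 were probe sets near background in both groups. Mthfd2 1419254_at was 25.3 in HSALR 5, with the nearest array at 57.0 and the gap at 0.558 of the group's log2 range. Shmt1 1422198_a_at was 31.8 in wild type 1, with the nearest at 14.2 and the gap at 0.657. Shmt2 1434204_x_at was 45.8 in wild type 1, with the nearest at 28.1 and the gap at 0.552. HSALR 5 has the lowest median intensity of all arrays, 39.7, and wild type 1 the highest, 71.9; the part of array brightness in these values was not tested.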

How the results depend on the processing

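Psph was past the threshold in every setting run, which is no independent support since the members were chosen with this contrast known, with differences from -0.57 (pseudocount 64) to -0.74 (without HSALR 8), and so was Shmt1 1425179_at in each one where it was tested, from 0.39 to 0.74; it failed the filter at the upper quartile. Member probe sets called higher, 1 as reported, were 0 with the upper quartile filter, 2 with array weights (Phgdh 1456584_x_at added), 3 with the 3'/5' ratio as covariate (Phgdh 1437621_x_at and 1456584_x_at added), and 1 to 2 when leaving out 1 array (2 without HSALR 7). Those called lower, 1 as reported, were 2 after quantile normalization, with or without HSALR 9 and 10, and 1 when leaving out any 1 array.

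Pathway genes called higher, 1 as reported, were 0 with pseudocount 1, without a filter and without HSALR 9 and 10; 2 with pseudocount 64, the upper quartile filter and the other variance model; 5 with median centring, 8 after quantile normalization, 6 after it without HSALR 9 and 10, 10 with the 3'/5' covariate and 14 with array weights. Leaving out 1 array gave 0 to 6, with 6 without HSALR 5, 4 without HSALR 7, 2 without HSALR 1 or 4, and 0 without any one of 11 other arrays. Those called lower, 6 as reported, were 19 after quantile normalization, 14 after it without HSALR 9 and 10, 13 with median centring, and 6 to 10 when leaving out 1 array (10 without HSALR 8). The share of all tested probe sets called higher also moved, from 2.86% as reported to 7.57% with the covariate, 10.1% with array weights, 6.47% after quantile normalization and 6.94% without HSALR 5. The causes were not tested.

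Signs turned for Mthfd1 with array weights (0.029), for Cbs with median centring (-0.00217), with the covariate (-0.034) and when leaving out 1 array (-0.00892 to 0.11), and for Asns after quantile normalization (-0.026), with median centring (-0.023), with the replicate block (-0.070), without HSALR 9 and 10 (-0.16, or -0.15 with quantile normalization) and when leaving out 1 array (-0.070 to 0.13). With the replicate block, which leaves out HSALR 10, Psph had -0.68 and Shmt1 1425179_at 0.61, and over all probe sets 409 were higher and 307 lower, against 645 and 495. Serinc5 lost the threshold there and in 17 other settings.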
